A study of Homo sapiens with 8 samples.

Results

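The RAB GTPases were followed at the RNA level in KYSE150 cells depleted of HNRNPC. Members were the genes whose symbol is RAB, a number and at most 1 letter, and which had at least 10 reads in at least 4 of 8 libraries. Of 62 genes with such a symbol, 51 met that floor, out of 16082 genes in the count table. The 11 genes below it were RAB3B, RAB6B, RAB9B, RAB15, RAB33A, RAB37, RAB39B, RAB40A, RAB41, RAB42 and RAB44. Just inside the floor were RAB40B, with 3 to 23 reads per library, RAB6C, with 6 to 19, and RAB7B, with 7 to 85. RAB40B met it through its controls, with at least 10 reads in 1 knockdown library, RAB7B needed its controls too, and RAB6C needed its knockdown libraries. Their differences between groups are partly set by the floor and are given as a description. Just outside it were RAB15, with 5 to 14 reads, RAB33A, with 6 to 20, and RAB9B, with 0 to 15. KYSE150 is a widely used cell line from a human squamous cell carcinoma of the esophagus. The 4 shHNRNPC samples carried a short hairpin RNA against HNRNPC, a nuclear RNA-binding protein, and the 4 control samples were of the control genotype; the labels list no further treatment for either group. Poly(A) RNA was sequenced as paired-end reads. The labels give neither the number of hairpins or clones nor separate cultures, so the p-values describe the spread among the 8 sequenced samples alone, and that spread may be technical.

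RAB proteins are small GTPases that give membranes their identity. An exchange factor loads a RAB with GTP on a given organelle, the GTP-bound RAB recruits effectors such as tethers, motors and sorting proteins, and a GTPase-activating protein returns it to the GDP-bound form. GDP dissociation inhibitor then extracts the lipid-modified RAB and carries it back. In epithelial cells, RABs direct the uptake and recycling of integrins, cadherins and growth factor receptors and the release of granules and exosomes.

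Library totals were 28323403 to 34913500 reads. HNRNPC had 33.8, 32.9, 32.5 and 36.5 CPM in the shHNRNPC libraries, against 601, 589.7, 571 and 587 CPM in the controls (CPM, read counts relative to TMM-adjusted library totals; replicates 1 to 4 in order, here and below; means below are given ± SD over 4 samples each). All 4 knockdown libraries lay far below all controls, at 5.78% of the control mean (log2 fold change -4.12, SE 0.027, edgeR adjusted p = 5.7e-75). All 8 epithelial markers were found, and their summed level was 5184 to 5327 CPM in shHNRNPC libraries and 3143 to 3235 CPM in controls, with 6 higher and 2 lower. Most of that sum came from KRT8 (1684 ± 29.7 CPM in shHNRNPC samples and 786 ± 18.7 CPM in controls) and KRT18 (1280.1 ± 18.2 CPM in shHNRNPC samples and 868 ± 13.5 CPM in controls), keratins of simple epithelium. Of the squamous markers, KRT5 was higher (1122 ± 13.7 CPM in shHNRNPC samples and 564 ± 6.60 CPM in controls), while TP63 (129 ± 1.63 CPM in shHNRNPC samples and 176 ± 2.14 CPM in controls) and KRT14 (4.89 ± 0.482 CPM in shHNRNPC samples and 8.35 ± 0.661 CPM in controls) were lower. Markers of other cell types were low. They gave 0.483 to 0.921 CPM in shHNRNPC libraries and 0.191 to 0.500 CPM in controls for leukocytes, from 2 of 5 genes with values, 1.24 to 1.84 CPM in shHNRNPC libraries and 2.15 to 2.45 CPM in controls for 4 of 4 endothelial genes, and 8.38 to 9.496 CPM in shHNRNPC libraries and 3.65 to 3.88 CPM in controls for 5 of 5 fibroblast genes. Among fibroblast markers COL1A2 and DCN had at most 1 read in any library of either group, while COL1A1 took most of the sum (7.86 ± 0.222 CPM in shHNRNPC samples and 3.25 ± 0.0917 CPM in controls). The part of these marker levels in the RAB results was not tested. In bulk RNA, fewer cells of a type and less RNA per cell cannot be told apart.

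Most RAB genes changed, mostly by a little, and in both directions. Of the 51 members, all of which passed the filter on low counts, 38 passed the test (74.5%; edgeR's quasi-likelihood test with Benjamini-Hochberg adjustment over 12001 genes, threshold 0.05), against 77.3% of all genes tested. Higher in shHNRNPC samples were 24 (47.1%, against 38.7% of all genes) and lower were 14 (27.5%, against 38.6%). At 1.5-fold or more, 13 members passed (25.5%, against 21.9% of all genes), with 7 higher and 6 lower. CPM values of the groups did not overlap for 34 members (66.7%, against 70.8% of all genes). The median log2 fold change of the members was 0.057, against -0.006 over all genes tested. At 2-fold or more 6 members passed (11.8%, against 8.42% of all genes): RAB26 and RAB20 were higher, and RAB7B, RAB27B, RAB38 and RAB40B were lower. Of the 48 members with at least 10 reads in every library, 36 passed the test, 24 higher and 12 lower, and 4 reached 2-fold. Each of the 7 named membrane groups held both rises and falls, as the plot of fold changes by membrane shows. The groups are small and were not tested as sets. The shares over all genes tested, 38.7% higher and 38.6% lower, are the background for the counts per group below.

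**Figure D1:**
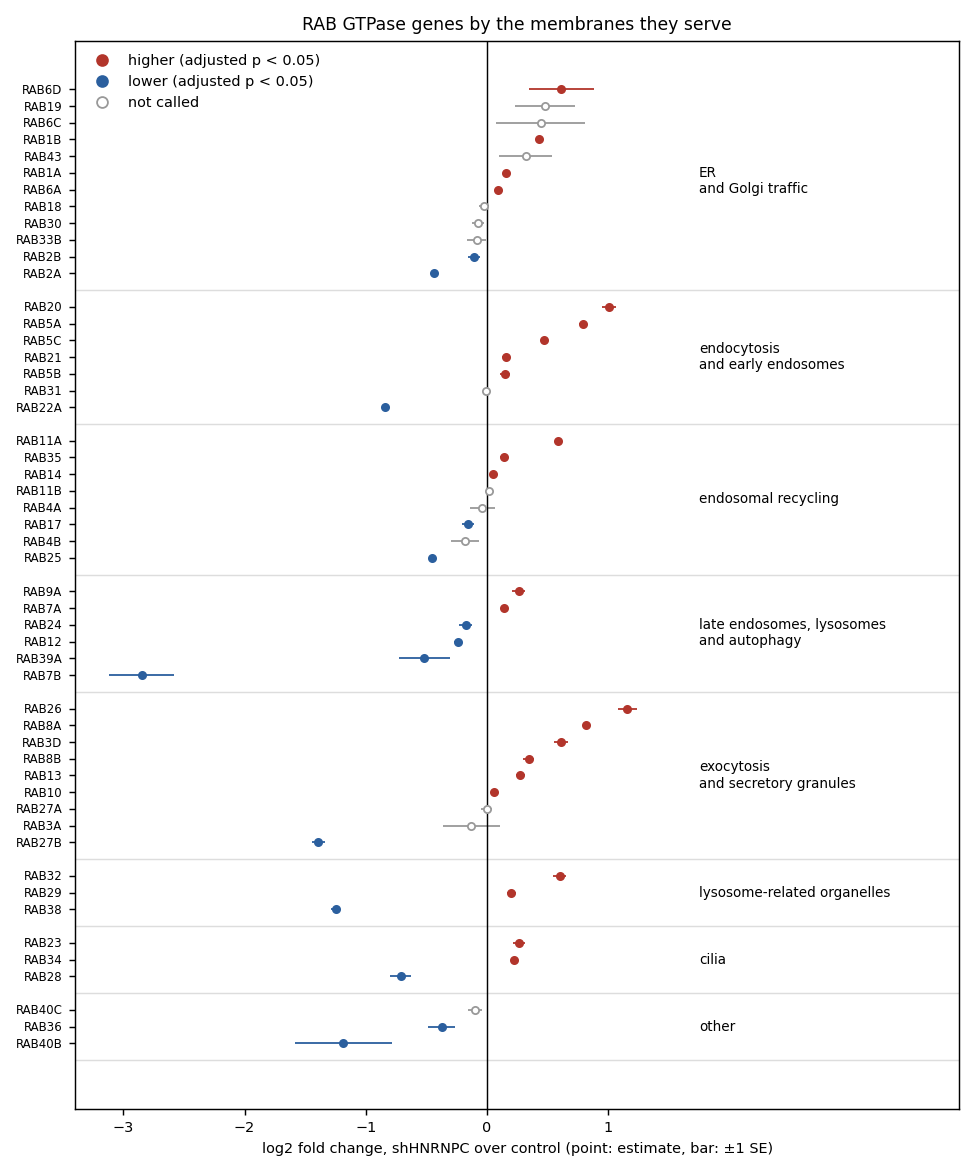
Log2 fold change (shHNRNPC over control, n = 4 each) of the 51 RAB genes, grouped by the membranes they serve; points are edgeR estimates, bars ±1 SE, red is higher, blue lower and open grey not called. RAB26 lies farthest right at 1.16 and RAB7B farthest left at -2.85, and rises and falls occur side by side within most groups.

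Traffic between the endoplasmic reticulum and the Golgi is served by 12 members, of which 4 were higher, 2 lower and 6 not called (median log2 fold change 0.12). RAB1B, which with RAB1A controls transport out of the endoplasmic reticulum, had 293, 294, 305 and 299 CPM in the shHNRNPC libraries, against 227, 216, 224 and 218 CPM in the controls. Its groups were well apart (log2 fold change 0.43, SE 0.022, edgeR adjusted p = 1.9e-27), although 42.6% of its exon bases overlap antisense genes. RAB1A changed less, with 149.9 ± 2.54 CPM in shHNRNPC samples and 134 ± 3.88 CPM in controls (log2 fold change 0.16, SE 0.026, edgeR adjusted p = 1.1e-07); 22.9% of its exon bases overlap CEP68 on the opposite strand, which was lower (22.1 ± 1.19 CPM in shHNRNPC samples and 28.0 ± 1.08 CPM in controls). The other direction was taken by RAB2A, which tethers vesicles at the Golgi and had 87.3, 86.6, 87.7 and 84.9 CPM in the shHNRNPC libraries, against 115, 117, 118 and 118 CPM in the controls. Every knockdown library lay below every control (log2 fold change -0.44, SE 0.028, edgeR adjusted p = 3.4e-22). Its paralogue RAB2B had 30.3 ± 1.56 CPM in shHNRNPC samples and 32.6 ± 1.57 CPM in controls and overlapping groups (log2 fold change -0.11, SE 0.049, edgeR adjusted p = 0.0437), a call that was lost in 8 of the 16 alternative analyses. Among these were the analyses without control replicate 1, 3 or 4 or without shHNRNPC replicate 3 or 4 (-0.11 to -0.068, edgeR adjusted p from 0.0637 to 0.233).

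RAB6A, the main regulator of retrograde transport through the Golgi, had 206 ± 3.24 CPM in shHNRNPC samples and 194 ± 5.35 CPM in controls (log2 fold change 0.088, SE 0.023, edgeR adjusted p = 5.3e-04). RAB6C and RAB6D are close copies of it, and their reads may be shared between loci, so their values are uncertain. The coding sequence of RAB6C was 96.2% identical to that of RAB6A over 627 positions, and that of RAB6D 96.3%. Coding bases 556 to 615, counted from the A of the start codon, are shown because this stretch of 60 bases holds the most differences; capitals mark the 6 positions that differ, and RAB6C and RAB6D are alike in all of them (GENCODE release 29, GRCh38; chromosome 11 minus strand for RAB6A, chromosome 2 plus and minus strand for RAB6C and RAB6D).
RAB6A: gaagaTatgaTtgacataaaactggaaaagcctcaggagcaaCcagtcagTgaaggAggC
RAB6C: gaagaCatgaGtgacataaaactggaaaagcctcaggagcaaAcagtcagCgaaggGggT
RAB6D: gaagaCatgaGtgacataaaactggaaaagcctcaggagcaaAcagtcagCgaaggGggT
RAB6C, with 26.1% of exon bases overlapping RAB6C-AS1 on the opposite strand, had 0.531 ± 0.0230 CPM in shHNRNPC samples and 0.391 ± 0.147 CPM in controls (adjusted p = 0.265 by edgeR). RAB6D had 2.02, 1.29, 1.117 and 1.14 CPM in the shHNRNPC libraries, against 1.09, 1.27, 0.624 and 0.603 CPM in the controls. The RAB6D groups overlapped, with shHNRNPC replicate 1 highest (log2 fold change 0.61, SE 0.27, edgeR adjusted p = 0.033), and without that library the estimate was 0.39 (edgeR adjusted p = 0.218). The call of RAB6D was also lost without control replicate 3 (0.48, edgeR adjusted p = 0.113) or control replicate 4 (0.47, edgeR adjusted p = 0.121). Of the remaining members that did not pass, RAB18, which acts at the endoplasmic reticulum and lipid droplets, had 82.2 ± 2.62 CPM in shHNRNPC samples and 83.7 ± 6.44 CPM in controls, RAB30 27.1 ± 1.85 CPM in shHNRNPC samples and 28.6 ± 0.389 CPM in controls and RAB33B 12.04 ± 0.917 CPM in shHNRNPC samples and 12.8 ± 0.765 CPM in controls, with edgeR adjusted p from 0.19 to 0.555. RAB19 had 1.49 ± 0.314 CPM in shHNRNPC samples and 1.07 ± 0.293 CPM in controls (log2 fold change 0.48, SE 0.24, edgeR adjusted p = 0.0688). It was called without control replicate 3 (0.67, edgeR adjusted p = 0.0193) and without shHNRNPC replicate 1 (0.60, edgeR adjusted p = 0.0332). RAB43, 79.3% of whose exon bases belong also to the ISY1-RAB43 readthrough gene, had 1.68 ± 0.272 CPM in shHNRNPC samples and 1.35 ± 0.107 CPM in controls (edgeR adjusted p = 0.183).

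Endocytosis and early endosomes had 7 members, of which 5 were higher, 1 lower and 1 not called (median 0.16). Of all genes tested, 38.7% were higher and 38.6% lower. RAB20 (chr13:110523066-110561722, minus strand; RefSeq positions on GRCh38), which acts in the maturation of phagosomes and early endosomes, had 27.8, 28.5, 26.9 and 28.8 CPM in the shHNRNPC libraries, against 13.9, 12.4, 13.96 and 15.5 CPM in the controls. All knockdown values were above all controls (log2 fold change 1.01, SE 0.060, edgeR adjusted p = 1.4e-23). RAB5A (chr3:19947097-19985175, plus strand), which drives fusion of early endosomes, had 93.6, 98.1, 101 and 92.0 CPM in the shHNRNPC libraries, against 55.3, 57.2, 54.7 and 55.2 CPM in the controls. The groups again did not overlap (log2 fold change 0.79, SE 0.033, edgeR adjusted p = 2.5e-31). RAB5C, the highest RAB5 gene per kb of transcript, had 252, 240.3, 244 and 262 CPM in the shHNRNPC libraries, against 184, 175, 186 and 176 CPM in the controls. It was 1.38-fold higher with no overlap (log2 fold change 0.47, SE 0.025, edgeR adjusted p = 5.5e-24), with 30.4% of its exon bases overlapping other genes. RAB5B rose less, with 50.1 ± 1.79 CPM in shHNRNPC samples and 45.2 ± 2.26 CPM in controls (log2 fold change 0.15, SE 0.041, edgeR adjusted p = 0.00105), as did RAB21, an integrin-binding endocytic RAB, with 76.8 ± 1.20 CPM in shHNRNPC samples and 68.7 ± 3.12 CPM in controls (log2 fold change 0.16, SE 0.034, edgeR adjusted p = 2.0e-05). RAB31 had 75.3 ± 1.21 CPM in shHNRNPC samples and 75.5 ± 1.87 CPM in controls (log2 fold change -0.004, edgeR adjusted p = 0.903).

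RAB22A (chr20:58309715-58367507, plus strand), which works with early endosomes and their tubular recycling, moved the other way, with 67.2, 65.4, 63.8 and 67.5 CPM in the shHNRNPC libraries, against 116, 119.8, 119 and 118 CPM in the controls. Its replicates lay close together in both groups, and every knockdown value was below every control (log2 fold change -0.84, SE 0.030, edgeR adjusted p = 2.5e-35). Promoters were examined for the 2 largest rises and falls among members with a single listed start and at least 5 CPM. These were RAB8A, RAB5A, RAB22A and RAB28. RAB5A and RAB22A are shown as early endosomal RABs above 50 CPM on average in each group that changed in opposite directions. The RefSeq windows (GRCh38.p14) run from 250 bases before to 50 bases after the start of the gene, chr3:19946847-19947146 and chr20:58309465-58309764, both on the plus strand, and capitals mark GC boxes, GGGCGG or its complement CCGCCC.
RAB5A: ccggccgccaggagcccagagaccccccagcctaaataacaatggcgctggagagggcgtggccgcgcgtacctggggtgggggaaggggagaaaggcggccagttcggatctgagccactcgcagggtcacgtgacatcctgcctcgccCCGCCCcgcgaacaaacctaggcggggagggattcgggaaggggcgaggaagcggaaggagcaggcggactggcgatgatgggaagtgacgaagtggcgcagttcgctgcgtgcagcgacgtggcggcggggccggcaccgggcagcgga
RAB22A: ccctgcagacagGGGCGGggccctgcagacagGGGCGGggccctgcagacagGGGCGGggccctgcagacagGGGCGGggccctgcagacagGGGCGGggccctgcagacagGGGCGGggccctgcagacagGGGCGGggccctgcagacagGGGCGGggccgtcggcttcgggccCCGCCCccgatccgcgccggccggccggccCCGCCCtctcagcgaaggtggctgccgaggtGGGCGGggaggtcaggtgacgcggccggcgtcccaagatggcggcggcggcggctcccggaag
The RAB22A window held 11 GC boxes, most of them in a tandem repeat, and 31 CpG dinucleotides. The RAB5A window held 1 GC box, 32 CpG dinucleotides and an E-box (CACGTG, its own complement). In the same kind of window, RAB8A, which was higher, and RAB28, which was lower, each held 2 GC boxes. A link between GC boxes and the direction of change was not tested. A match is a description of letters and not of binding. Over the 63 RefSeq promoter windows of the 43 members that had one, 47 (74.6%) held a GC box, against 45.0% of 35116 promoters. These sets are unlike, as members had met a floor on reads and the 35116 promoters were taken without one. Whether members differ from other genes above that floor was not tested. CCAAT or ATTGG was in 31.7% of member windows and 34.6% of all promoters, TATAAA or TTTATA in 7.94% and 11.5%, and CACGTG in 9.52% and 7.26%. No motif searched contains another.

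Endosomal recycling was the role of 8 members, of which 3 were higher, 2 lower and 3 not called (median -0.011). RAB11A (chr15:65869491-65891989, plus strand), which returns receptors to the surface through the recycling endosome, had 202, 202, 205 and 204 CPM in the shHNRNPC libraries, against 139, 136, 133 and 135 CPM in the controls. Its knockdown and control values formed separate, tight groups (log2 fold change 0.58, SE 0.024, edgeR adjusted p = 3.1e-32). RAB11B, its close paralogue, had 125, 121, 120.5 and 121 CPM in the shHNRNPC libraries, against 125, 118, 125 and 115 CPM in the controls. Those groups overlapped and the gene was not called (log2 fold change 0.016, SE 0.028, edgeR adjusted p = 0.608). RAB25, the epithelial member of the RAB11 subfamily, had 84.5, 87.0, 90.4 and 86.8 CPM in the shHNRNPC libraries, against 117, 119.5, 124 and 116 CPM in the controls. It was lower in every knockdown library than in any control (log2 fold change -0.45, SE 0.029, edgeR adjusted p = 4.6e-22). RAB17, another epithelial RAB, was lower by less (30.8 ± 1.56 CPM in shHNRNPC samples and 34.3 ± 1.45 CPM in controls; log2 fold change -0.16, SE 0.048, edgeR adjusted p = 0.00281). RAB35, which serves fast recycling, was higher (104 ± 3.46 CPM in shHNRNPC samples and 94.8 ± 0.870 CPM in controls; log2 fold change 0.14, SE 0.029, edgeR adjusted p = 1.6e-05). RAB14 had 188 ± 3.86 CPM in shHNRNPC samples and 182 ± 4.81 CPM in controls and overlapping groups (log2 fold change 0.051, SE 0.024, edgeR adjusted p = 0.0442), and its call was lost in 11 of 16 alternatives. These included the analyses without control replicate 1, 2 or 3 and without shHNRNPC replicate 2 or 3 (0.038 to 0.051, edgeR adjusted p from 0.072 to 0.159). RAB4A and RAB4B, which serve rapid recycling from early endosomes, did not pass. RAB4A had 7.04 ± 0.583 CPM in shHNRNPC samples and 7.23 ± 0.856 CPM in controls (edgeR adjusted p = 0.743), and RAB4B had 5.08 ± 0.421 CPM in shHNRNPC samples and 5.76 ± 0.485 CPM in controls (edgeR adjusted p = 0.152). In RAB4B 39.6% of exon bases overlap other genes.

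Late endosomes, lysosomes and autophagy had 6 members, of which 2 were higher and 4 lower (median -0.21). Over all genes tested, 38.7% were higher and 38.6% lower. RAB7A, which governs the fusion of late endosomes with lysosomes, had 493, 479, 491 and 488 CPM in the shHNRNPC libraries, against 454, 440.4, 447 and 428 CPM in the controls. All knockdown values exceeded all controls, by a small step (log2 fold change 0.14, SE 0.020, edgeR adjusted p = 2.5e-09). RAB7B (chr1:205976740-206003395, minus strand), which acts between endosomes and the trans-Golgi, had 0.248, 0.374, 0.332 and 0.335 CPM in the shHNRNPC libraries, against 2.31, 2.31, 2.65 and 2.19 CPM in the controls. It was at 13.6% of control without overlap (log2 fold change -2.85), from 7 to 13 reads in the knockdown libraries and 69 to 85 in the controls. RAB7A and RAB7B were the one pair of members sharing a RAB number in which both passed in opposite directions. As RAB7B met the floor with the help of its controls, this is given as a description. RAB12, which directs transferrin receptor to lysosomes, had 58.3, 58.4, 58.6 and 59.1 CPM in the shHNRNPC libraries, against 68.0, 69.1, 68.8 and 70.6 CPM in the controls. It was lower in every knockdown library (log2 fold change -0.24, SE 0.034, edgeR adjusted p = 5.1e-09). RAB9A, which acts in return from late endosomes to the Golgi, was higher (30.5 ± 0.948 CPM in shHNRNPC samples and 25.4 ± 1.48 CPM in controls; log2 fold change 0.26, SE 0.051, edgeR adjusted p = 6.8e-06). The autophagy-linked RAB24 was lower (23.3 ± 1.15 CPM in shHNRNPC samples and 26.3 ± 1.123 CPM in controls; log2 fold change -0.18, SE 0.053, edgeR adjusted p = 0.0025), but 44.8% of its exon bases overlap MXD3 on the same strand, which was higher (12.3 ± 1.00 CPM in shHNRNPC samples and 10.6 ± 0.637 CPM in controls; log2 fold change 0.22). RAB39A had 1.55 ± 0.446 CPM in shHNRNPC samples and 2.23 ± 0.352 CPM in controls and overlapping groups (log2 fold change -0.52, SE 0.21, edgeR adjusted p = 0.0235), and lost its call in 5 alternatives. These were the analyses without shHNRNPC replicate 1, 2 or 4, without replicates 1 and 4 together, and without control replicate 4, with estimates of -0.49 to -0.35 and edgeR adjusted p from 0.052 to 0.188.

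Exocytosis and secretory granules had 9 members, of which 6 were higher, 1 lower and 2 not called (median 0.28). Among all genes tested, 38.7% were higher and 38.6% lower. RAB26 (chr16:2148144-2154165, plus strand), found on secretory granules, had 16.8, 16.6, 17.0 and 16.2 CPM in the shHNRNPC libraries, against 8.36, 6.66, 7.43 and 7.30 CPM in the controls. Knockdown values were about alike and all above the controls (log2 fold change 1.16, SE 0.081, edgeR adjusted p = 1.9e-20), the largest rise of any member. RAB8A (chr19:16111889-16134234, plus strand), which carries membrane from the Golgi and recycling endosomes to the cell surface, had 129, 122, 132 and 132 CPM in the shHNRNPC libraries, against 76.4, 72.2, 69.4 and 73.4 CPM in the controls. The 2 groups were far apart (log2 fold change 0.82, SE 0.031, edgeR adjusted p = 6.7e-34). Of its exon bases 41.7% overlap other genes, among them HSH2D, which had 6.34 ± 0.941 CPM in shHNRNPC samples and 4.36 ± 0.208 CPM in controls. RAB3D, a RAB of exocrine granules, had 30.5, 30.9, 32.7 and 30.7 CPM in the shHNRNPC libraries, against 21.9, 21.5, 19.7 and 18.5 CPM in the controls. It was 1.53-fold higher with no overlap (log2 fold change 0.61, SE 0.054, edgeR adjusted p = 6.2e-16), with 24.9% of exon bases overlapping other genes. RAB8B (40.8 ± 1.07 CPM in shHNRNPC samples and 32.1 ± 0.421 CPM in controls; log2 fold change 0.35, SE 0.044, edgeR adjusted p = 2.3e-10) and RAB13 of tight junctions (71.2 ± 1.96 CPM in shHNRNPC samples and 58.8 ± 1.05 CPM in controls; log2 fold change 0.28, SE 0.034, edgeR adjusted p = 8.8e-11) rose by smaller amounts. In RAB13 24.8% of exon bases overlap another gene, and 54.2% of the 100-base windows of its transcript occur in transcripts of other genes. RAB10 had 185 ± 3.47 CPM in shHNRNPC samples and 178 ± 2.95 CPM in controls (log2 fold change 0.057, SE 0.023, edgeR adjusted p = 0.0233), a call lost without TMM scaling (0.036, edgeR adjusted p = 0.154). It was also lost without control replicate 2 (0.045, edgeR adjusted p = 0.099), shHNRNPC replicate 3 (0.047, edgeR adjusted p = 0.0789) or shHNRNPC replicates 2 and 3 (0.038, edgeR adjusted p = 0.234).

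RAB27B (chr18:54717857-54895516, plus strand), which docks granules and exosome-bearing endosomes at the plasma membrane, was the only exocytic member called lower. It had 13.2, 14.1, 15.4 and 15.1 CPM in the shHNRNPC libraries, against 37.0, 37.5, 35.9 and 41.4 CPM in the controls. Every knockdown value lay below every control, at 38.1% of the control mean (log2 fold change -1.39, SE 0.056, edgeR adjusted p = 2.9e-32). RAB27A, which shares effectors with it, had 31.7, 32.0, 32.1 and 33.3 CPM in the shHNRNPC libraries, against 31.9, 33.6, 30.4 and 33.3 CPM in the controls. The groups overlapped and the means were alike within their spread (32.3 ± 0.704 CPM in shHNRNPC samples and 32.3 ± 1.496 CPM in controls, SD, n = 4 each; edgeR adjusted p = 0.954). RAB3A was low, with 1.29 ± 0.340 CPM in shHNRNPC samples and 1.42 ± 0.264 CPM in controls, and was not called (edgeR adjusted p = 0.627).

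The RABs of lysosome-related organelles split as well. RAB38 (chr11:87803715-88175443, minus strand), which with RAB32 delivers cargo to melanosomes and related organelles, had 35.6, 38.8, 40.3 and 37.8 CPM in the shHNRNPC libraries, against 88.8, 88.6, 94.3 and 91.5 CPM in the controls. Its groups were separate, with the knockdown mean at 42.0% of control (log2 fold change -1.25, SE 0.037, edgeR adjusted p = 9.0e-40). RAB32 had 32.7, 30.8, 34.4 and 31.6 CPM in the shHNRNPC libraries, against 20.4, 20.7, 21.9 and 22.5 CPM in the controls. It was higher in every knockdown library (log2 fold change 0.60, SE 0.052, edgeR adjusted p = 2.8e-16). RAB29, related to both, was higher by less (51.5 ± 1.87 CPM in shHNRNPC samples and 44.8 ± 0.280 CPM in controls; log2 fold change 0.20, SE 0.039, edgeR adjusted p = 6.3e-06). Of the cilium-linked RABs, RAB28 had 6.78, 6.99, 7.82 and 7.71 CPM in the shHNRNPC libraries, against 11.6, 12.6, 11.2 and 12.6 CPM in the controls. It was lower without overlap (log2 fold change -0.71, SE 0.088, edgeR adjusted p = 7.8e-11). RAB23, known as an antagonist of Hedgehog signalling in mouse, was higher (32.9 ± 1.34 CPM in shHNRNPC samples and 27.4 ± 0.491 CPM in controls; log2 fold change 0.27, SE 0.049, edgeR adjusted p = 1.7e-06). RAB34, which acts in the assembly of cilia, was higher too (108 ± 2.37 CPM in shHNRNPC samples and 92.1 ± 1.255 CPM in controls; log2 fold change 0.23, SE 0.028, edgeR adjusted p = 1.4e-10). In RAB23 57.7% of exon bases overlap BAG2 on the opposite strand, and BAG2 had 0.293 ± 0.0697 CPM in shHNRNPC samples and 0.166 ± 0.107 CPM in controls.

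Of the 3 members left over, RAB36 had 5.18, 5.35, 4.95 and 5.13 CPM in the shHNRNPC libraries, against 7.12, 6.60, 7.03 and 5.94 CPM in the controls. It was lower without overlap, by a modest step (log2 fold change -0.37, SE 0.11, edgeR adjusted p = 0.00176). RAB40B, which joins a ubiquitin ligase through a SOCS box, had 0.248, 0.374, 0.272 and 0.101 CPM in the shHNRNPC libraries, against 0.650, 0.503, 0.437 and 0.730 CPM in the controls. Values were low everywhere, from 3 to 13 reads in the knockdown libraries and 14 to 23 in the controls. As it met the floor through the controls, its log2 fold change of -1.18 is partly set by that choice, and its call was lost without shHNRNPC replicates 1 and 4 (-0.83, edgeR adjusted p = 0.107). RAB40C had 20.7 ± 1.33 CPM in shHNRNPC samples and 22.2 ± 0.899 CPM in controls and was not called (edgeR adjusted p = 0.112). It passed without shHNRNPC replicate 2 (-0.14, edgeR adjusted p = 0.0335) and without replicates 2 and 3 (-0.17, edgeR adjusted p = 0.0376).

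**Figure D2:**
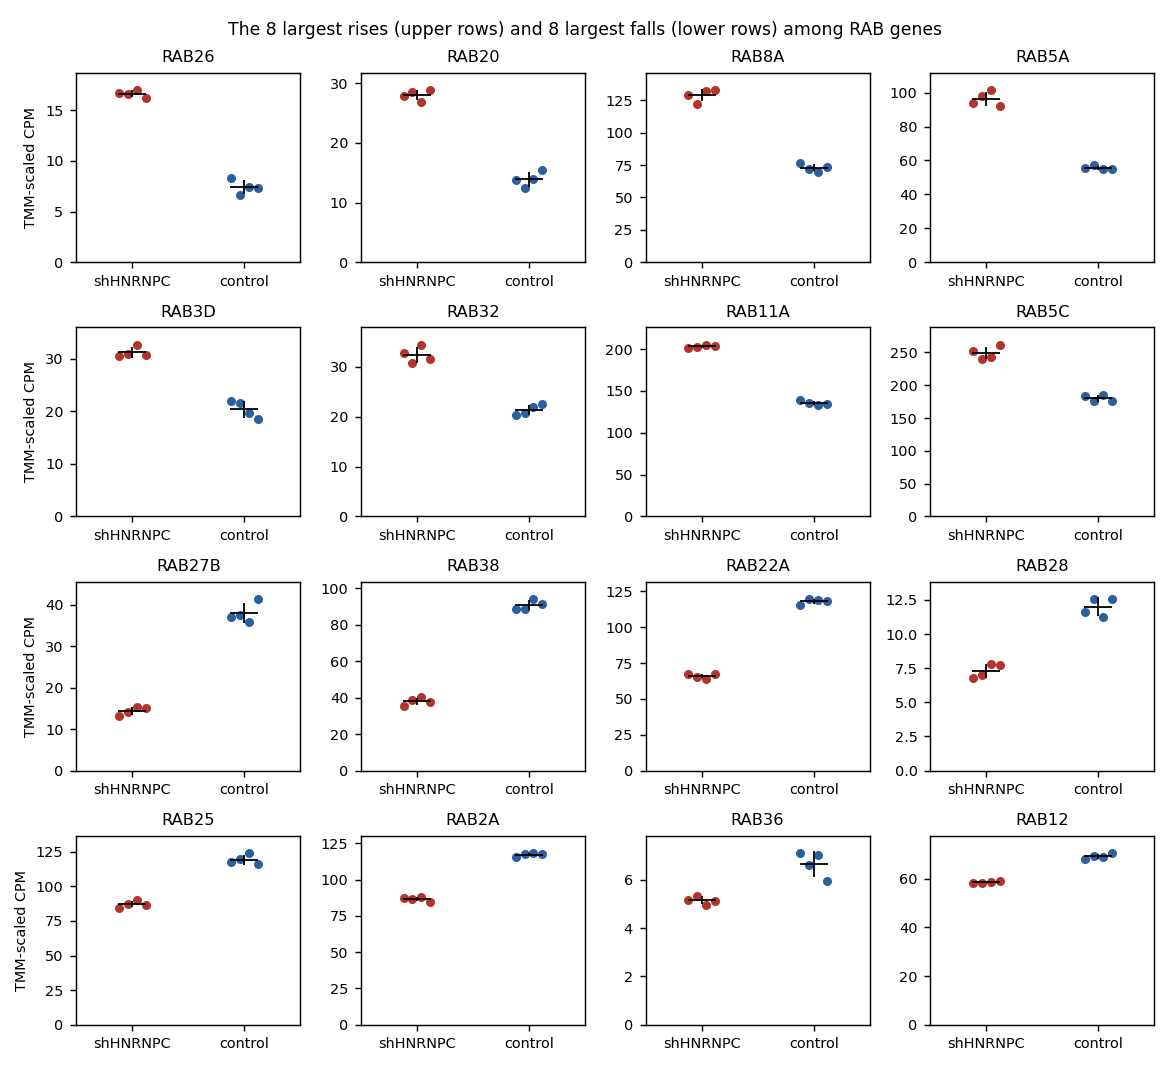
CPM in each library (points, shHNRNPC left and control right in every panel; lines, mean ± SD of 4) for the 8 members with the largest rises and the 8 with the largest falls among called members averaging 5 CPM or more in whichever group was higher. The groups overlap in none of the 16 panels, and the changes reach 2.23-fold for RAB26 and 0.381-fold for RAB27B.

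Count ratios of paralogues with the same RAB number often differed between the groups. The log2 ratio of their counts within each library, in which library scaling cancels, was compared for all 15 pairs by exact two-sided permutation tests with Benjamini-Hochberg adjustment over the pairs. For 10 pairs the ratio passed, each at the smallest p that 70 assignments allow (permutation p = 0.0286, adjusted p = 0.0429). Each adjusted value thus rests on how many pairs reached that smallest p together. A pair reaching it alone among the 15 would not have passed, and the RAB5 ratios share genes. How often ratios of other gene pairs would pass was not tested, and 77.3% of all genes tested were themselves called. The ratio of RAB27A to RAB27B counts was 2.24 in shHNRNPC samples and 0.852 in controls (difference of the log2 ratio 1.39). Of RAB27 reads, RAB27A took 69.1 ± 1.23% in shHNRNPC samples and 46.0 ± 1.117% in controls. Per kb of transcript RAB27A was above RAB27B in both groups, at 9.33 ± 0.204 CPM per kb in shHNRNPC samples and 9.35 ± 0.432 CPM per kb in controls, while RAB27B was at 1.99 ± 0.136 CPM per kb in shHNRNPC samples and 5.21 ± 0.330 CPM per kb in controls. The ratio of RAB11A to RAB11B was 1.67 in shHNRNPC samples and 1.13 in controls (difference of the log2 ratio 0.57). RAB8A over RAB8B was 3.16 in shHNRNPC samples and 2.27 in controls (difference of the log2 ratio 0.47), and RAB5A over RAB5B 1.92 in shHNRNPC samples and 1.23 in controls (difference of the log2 ratio 0.64). Both RAB8 genes and both of these RAB5 genes rose, and the first-named rose more.

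The other ratios that passed were RAB5A over RAB5C, RAB5B over RAB5C, RAB1A over RAB1B, RAB2A over RAB2B, RAB7A over RAB7B and RAB40B over RAB40C. RAB40B and RAB7B met the floor on reads with the help of their controls, so their 2 ratios are partly set by that. Among the 11 pairs whose members had at least 10 reads in every library, 8 passed (largest adjusted p = 0.0393, exact permutation test). The differences in log2 ratio of the 6 pairs just named were 0.32, -0.32, -0.27, -0.33, 3.03 and -1.24 in that order. The pairs RAB3A/RAB3D (permutation p = 0.0571 and adjusted p = 0.0779), RAB4A/RAB4B (permutation p = 0.171 and adjusted p = 0.198) and the 3 pairs among RAB6A, RAB6C and RAB6D did not pass. Count ratios compare a pair between groups and not the levels of its members, whose transcripts differ in length.

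**Figure D3:**
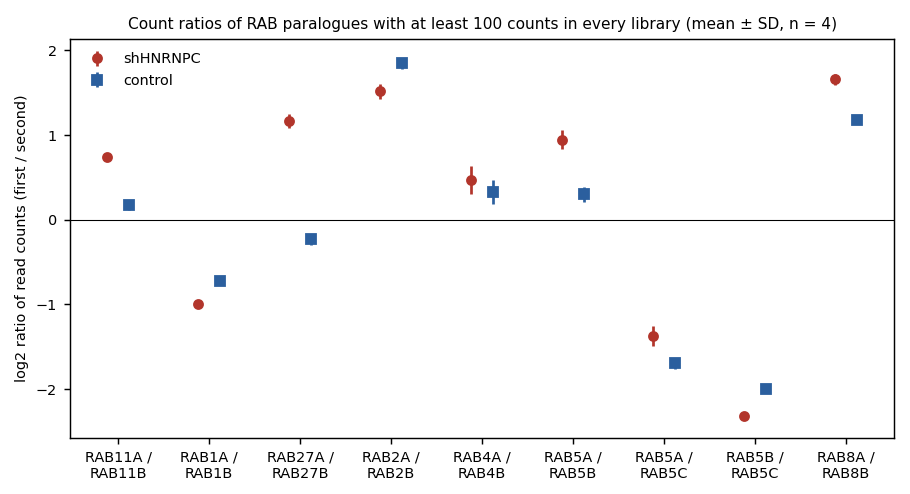
Mean log2 ratio of counts within a library (shHNRNPC red, left; control blue, right; bars ± SD, n = 4) for paralogue pairs whose members both had at least 100 reads in every library. The RAB27A/RAB27B ratio is at 1.16 in shHNRNPC samples and -0.23 in controls, the widest gap shown, and the RAB4A/RAB4B bars overlap.

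On a scale that allows genes to be compared, CPM per kb of transcript, RAB7A was the highest member, with 217 ± 2.74 CPM per kb in shHNRNPC samples and 197 ± 4.90 CPM per kb in controls (SD, n = 4 each). RAB1B followed with 148 ± 2.68 CPM per kb in shHNRNPC samples and 110.2 ± 2.45 CPM per kb in controls, and RAB5C with 130.4 ± 5.07 CPM per kb in shHNRNPC samples and 94.3 ± 2.79 CPM per kb in controls. The next members were RAB25, with 78.5 ± 2.20 CPM per kb in shHNRNPC samples and 107 ± 3.27 CPM per kb in controls, and RAB11B, with 69.7 ± 1.31 CPM per kb in shHNRNPC samples and 68.9 ± 2.72 CPM per kb in controls. In shHNRNPC samples RAB25 lay well below RAB1B and RAB5C, while in controls it lay above RAB5C and did not differ from RAB1B beyond their spread. All members together took 0.368 ± 0.00228% of library counts in shHNRNPC samples and 0.344 ± 0.00167% in controls. Members called higher, called lower and not called had median 3′ UTR lengths of 1887, 1615 and 2101 bases and median GC contents of 45.9%, 46.0% and 43.9%. Their median levels were 74.3, 28.8 and 12.4 CPM, with the lowest median among members not called.

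Genes that modify, load, unload or read RABs moved in both directions, like the RABs and like all genes tested. Of all genes tested, 38.7% were higher and 38.6% lower, the background for the counts that follow. Of 7 tested genes for prenylation, escort and recycling, 4 were higher, 2 lower and 1 not called (median log2 fold change 0.07). The subunits of RAB geranylgeranyl transferase went opposite ways, RABGGTA with 30.2, 28.6, 27.5 and 27.5 CPM in the shHNRNPC libraries, against 37.4, 38.9, 40.3 and 37.8 CPM in the controls, and RABGGTB with 55.6, 51.0, 51.9 and 52.2 CPM in the shHNRNPC libraries, against 38.3, 44.0, 37.6 and 45.5 CPM in the controls. Neither gene's groups overlapped (log2 fold changes -0.44, edgeR adjusted p = 6.4e-13, and 0.35, edgeR adjusted p = 8.0e-08). RABIF, which stabilises nucleotide-free RABs, was lower (10.5 ± 0.637 CPM in shHNRNPC samples and 14.4 ± 0.910 CPM in controls; log2 fold change -0.45) and RABAC1, a prenylated RAB acceptor, higher (25.7 ± 0.917 CPM in shHNRNPC samples and 21.6 ± 1.596 CPM in controls; log2 fold change 0.25). GDI2, an abundant GDP dissociation inhibitor named with its values in view, had 395 ± 2.61 CPM in shHNRNPC samples and 398 ± 4.67 CPM in controls and was not called (edgeR adjusted p = 0.662).

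Of 35 tested exchange factors, 15 were higher, 12 lower and 8 not called (median -0.013). RIC1, which with RGP1 activates RAB6A, had 629, 642, 629 and 630.3 CPM in the shHNRNPC libraries, against 286, 284, 296 and 290.2 CPM in the controls. It was 2.19-fold higher with no overlap (log2 fold change 1.13, SE 0.019, edgeR adjusted p = 1.0e-52). RGP1, chosen after its values were seen, was higher too (99.8 ± 1.22 CPM in shHNRNPC samples and 73.8 ± 2.47 CPM in controls; log2 fold change 0.43, SE 0.031, edgeR adjusted p = 2.4e-20), beside a log2 fold change of 0.088 in RAB6A. MON1B, part of the MON1-CCZ1 exchange factor for RAB7, had 84.8, 80.1, 83.2 and 91.2 CPM in the shHNRNPC libraries, against 136, 136, 139.9 and 133 CPM in the controls. It was lower in all knockdown libraries (log2 fold change -0.69, SE 0.030, edgeR adjusted p = 2.3e-29), whereas the log2 fold change of RAB7A was 0.14. DENND2A (6.54 ± 0.629 CPM in shHNRNPC samples and 4.12 ± 0.211 CPM in controls; log2 fold change 0.67) and DENND5A (107 ± 1.98 CPM in shHNRNPC samples and 72.1 ± 1.81 CPM in controls; log2 fold change 0.56), of the DENN domain exchange factors, were higher. In the TRAPP complexes, which activate RAB1 and RAB11, 5 of 14 genes were higher, 6 lower and 3 not called (median -0.038). TRAPPC6A was lower (3.79 ± 0.410 CPM in shHNRNPC samples and 8.14 ± 1.06 CPM in controls; log2 fold change -1.10), as was TRAPPC13 (log2 fold change -0.27). TRAPPC4 (log2 fold change 0.38) and TRAPPC1 (log2 fold change 0.32) were higher.

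Of 38 tested GTPase-activating proteins, 15 were higher, 16 lower and 7 not called (median -0.025). TBC1D4, which acts on RAB8A, RAB10 and RAB14, had 93.1, 95.8, 94.6 and 91.0 CPM in the shHNRNPC libraries, against 56.9, 55.0, 55.6 and 54.4 CPM in the controls. The groups were separate (log2 fold change 0.76, SE 0.032, edgeR adjusted p = 5.9e-31). TBC1D5, which acts on RAB7A with retromer, had 78.5, 82.3, 80.9 and 82.9 CPM in the shHNRNPC libraries, against 129, 128, 125 and 125 CPM in the controls. Here knockdown values were all below the controls (log2 fold change -0.65, SE 0.028, edgeR adjusted p = 1.8e-30). TBC1D10A, which acts on RAB27A and RAB35, was higher (16.6 ± 1.499 CPM in shHNRNPC samples and 10.5 ± 0.744 CPM in controls; log2 fold change 0.66), as was TBC1D22B (21.7 ± 0.862 CPM in shHNRNPC samples and 14.3 ± 0.495 CPM in controls; log2 fold change 0.60). SGSM1, named because it lies farthest right in the plot of RABs and their regulators, had 2.94 ± 0.325 CPM in shHNRNPC samples and 0.813 ± 0.156 CPM in controls (log2 fold change 1.85) and was chosen after its values were seen.

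Of 54 tested effectors, 16 were higher, 23 lower and 15 not called (median -0.031). SYTL1, a synaptotagmin-like effector of RAB27, had 12.2, 13.1, 10.4 and 13.0 CPM in the shHNRNPC libraries, against 26.2, 27.5, 26.4 and 27.9 CPM in the controls. It was lower without overlap (log2 fold change -1.15, SE 0.064, edgeR adjusted p = 3.4e-25). SH3TC2, a RAB11 effector known from Schwann cells, had 7.74, 6.16, 7.45 and 8.04 CPM in the shHNRNPC libraries, against 21.9, 24.0, 22.1 and 21.9 CPM in the controls. The knockdown mean was at 32.7% of control (log2 fold change -1.62, SE 0.077, edgeR adjusted p = 9.8e-29). RUSC2 was lower (11.4 ± 0.426 CPM in shHNRNPC samples and 21.4 ± 0.861 CPM in controls; log2 fold change -0.91), and KIF20A, a kinesin that binds RAB6 and acts in cytokinesis, was higher (148 ± 3.98 CPM in shHNRNPC samples and 79.4 ± 2.62 CPM in controls; log2 fold change 0.90). The other RAB27 effectors tested, added after values were seen, went different ways. SYTL3 was lower (2.10 ± 0.285 CPM in shHNRNPC samples and 4.60 ± 0.646 CPM in controls; log2 fold change -1.13) and EXPH5 higher (96.7 ± 3.29 CPM in shHNRNPC samples and 68.3 ± 3.98 CPM in controls; log2 fold change 0.50), while SYTL2 (2.22 ± 0.539 CPM in shHNRNPC samples and 2.21 ± 0.344 CPM in controls), UNC13D (58.5 ± 2.61 CPM in shHNRNPC samples and 59.96 ± 3.30 CPM in controls) and RPH3AL (1.55 ± 0.547 CPM in shHNRNPC samples and 2.01 ± 0.509 CPM in controls) were not called (edgeR adjusted p from 0.123 to 0.993).

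**Figure D4:**
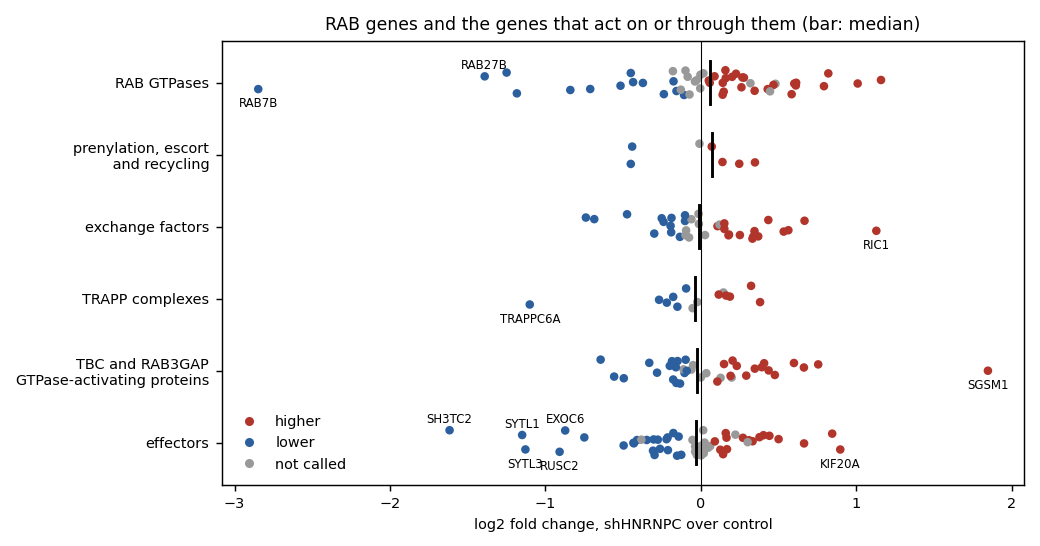
Log2 fold change (shHNRNPC over control) of each tested RAB gene and regulator, by role; red is higher, blue lower, grey not called, the black bar is the median of the row, and points are spread vertically only for legibility. Medians lie between -0.038 and 0.07 in all 6 rows, with labelled genes such as RIC1 (1.13) and SH3TC2 (-1.62) far from them.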

How the data were processed

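The deposited table holds raw read counts per gene for 16082 genes in 8 libraries, not normalised. Per the labels' protocols, TRIzol RNA was made into poly(A) libraries with a VAHTS kit. Per the series design text, low-quality paired-end reads were removed with fastp. Per the submitters' processing notes, reads were placed on hg38. Which aligner, counter, gene models and strand option were used is not given in sources used here, so reads of overlapping or antisense genes cannot be told apart; exon overlap (GENCODE release 29) is given where it exceeds 20%. CPM per kb divides CPM by the length of 1 GENCODE coding transcript per gene. In 19 members some 100-base windows of that transcript also occur in transcripts of other genes, so reads there may be shared.

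Samples were grouped by genotype, 4 shHNRNPC and 4 control. Genes were kept with edgeR's filterByExpr (minimum count 10, minimum total 15), leaving 12001, scaled by TMM (factors 0.9898 to 1.01) and tested with glmQLFit (robust) and glmQLFTest on group, with Benjamini-Hochberg adjustment over all 12001. Each SE is the size of the log2 fold change over the square root of F. Replicates varied little (edgeR common biological coefficient of variation 3.02%), so small differences passed. Chi-square per degree of freedom was 2.66 to 3.70 between libraries of a group, so none repeated another. Versions were R 4.3.3, edgeR 4.0.16, limma 3.58.1, DESeq2 1.42.0, Python 3.11.15, numpy 2.4.6, pandas 2.3.3 and scipy 1.17.1.

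The members, the membrane groups, the marker lists and the regulator lists were chosen with earlier results of these data known. Members named with values in every library were the 8 largest rises and 8 largest falls among called members averaging 5 CPM or more in whichever group was higher. The rule also took the 5 highest members per kb, paralogues called in opposite directions, members not called, and up to 4 called genes of each regulator list with at least 5 CPM. Every other member is given by short values, except RAB6D and RAB40B, whose values in every library were added after they were seen; regulators outside the rule are marked where named. Of 61 listed effectors 60 had a row, and 54 were tested. Protein sequences were not analysed here. Alternatives were other scaling, DESeq2, other filters, a replicate block, each library left out, and pairs of knockdown libraries left out.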

Additional observations from a re-analysis of the deposited data

Results flagged for a closer look

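In 6 of 144 groups of 4 values examined, 1 library stood off from its fellows by more than Dixon's 95% critical value for the gap over the range, in a test that flags about 1 group in 20 by chance. RAB11B was at 125 CPM in shHNRNPC replicate 1, with the other 3 at 120.5 to 121 CPM, and it was not called. RAB13 was at 60.4 CPM in control replicate 3, with the others at 58.2 to 58.3 CPM, all below the knockdown values. The remaining 4 were regulators. RIC1 was at 642 CPM in shHNRNPC replicate 2, against 629 to 630.3 CPM in the other 3. RUSC2 was at 22.7 CPM in control replicate 1, against 20.9 to 21.1 CPM. SH3TC2 was at 24.0 CPM in control replicate 2, against 21.9 to 22.1 CPM. TBC1D22B was at 15.1 CPM in control replicate 3, against 14.04 to 14.2 CPM. None of these gaps came near the difference between the groups in the 5 genes that were called.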

How the results depend on the processing

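Of the 38 called members, 32 kept the same call in each of 16 alternatives that could be fitted, and 6 did not: RAB2B, RAB6D, RAB10, RAB14, RAB39A and RAB40B, all with values given above. RAB6C and RAB40B were not fitted when at least 1 CPM in 4 libraries was asked. The count of members higher was 22 to 24 and of members lower 12 to 15. Direction changed only among members that were not called. Leaving out 1 library gave log2 fold changes of -0.004 to 0.033 for RAB11B, -0.057 to 0.023 for RAB18, -0.03 to 0.016 for RAB27A, -0.014 to 0.011 for RAB31, -0.308 to 0.007 for RAB3A and -0.108 to 0.033 for RAB4A. RAB11B was at -0.006 without TMM. Without shHNRNPC replicates 2 and 3 RAB27A was at 0.007 and RAB4A at 0.004, and RAB30 passed (-0.157, edgeR adjusted p = 0.0241). Without replicates 1 and 4 RAB30 was at 0.005 and RAB3A at 0.057. RAB6D was not called without shHNRNPC replicates 1 and 4 (0.42, edgeR adjusted p = 0.243). For these changes the cause was not tested. The RAB share of counts with TMM-scaled library sizes was 0.371% in shHNRNPC samples and 0.341% in controls. With 10 counts added to both genes, RAB3A/RAB3D also passed (adjusted p = 0.039, exact permutation test), making 11 pairs. With 3 against 4 libraries the smallest permutation p is 0.0571, so ratios were not retested there. Same-numbered libraries did not deviate together (correlations -0.0552 to 0.0170; 1 of 4 knockdown libraries correlated best with its own number). A replicate block gave 23 members higher and 13 lower, losing RAB14 (edgeR adjusted p = 0.0581) and RAB2B (edgeR adjusted p = 0.055). The counts over 48 members and 11 pairs with at least 10 reads in every library, given above, were added after seeing the data. Low counts limit RAB6C, RAB7B and RAB40B most.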
